A study of Mus musculus with 8 samples.

Results

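The 6 genes described here carry chromosome ends to the nuclear envelope during meiosis in male mice. They are Terb1, Terb2, Majin, Sun1, Ccdc155 and Spdya, chosen by name, out of 21887 protein-coding genes placed on chromosomes in the RefSeq table of GRCm38.p6 (the coordinates of mm10). Of the 6, 5 were matched by symbol and Ccdc155 by synonym, since the table calls it Kash5. What was mapped is H2A.Z, a variant of histone H2A, by chromatin immunoprecipitation and sequencing (ChIP-seq) of whole testis cells at postnatal day 14. The libraries form 4 groups of 2 replicates each: H2A.Z immunoprecipitates of Znhit1-CKO testes, inputs of Znhit1-CKO testes, H2A.Z immunoprecipitates of Control testes and inputs of Control testes. Znhit1-CKO is a conditional knockout of Znhit1, whose product belongs to the SRCAP complex and helps to place H2A.Z in chromatin, and the labels also write it Znhit1-sKO. The Cre driver, the strain and the Control alleles are not stated in the labels.

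The data are 3 lists of intervals without heights, p-values or read counts: 31156 Znhit1-CKO peaks, 48752 Control peaks and 24367 differential regions. One peak list stands for each genotype, so no value below has a replicate error, no difference between the genotypes was tested here, and depth per library is unknown. A peak that is not listed in 1 genotype did not pass the authors' threshold there, which does not show that H2A.Z was absent. Nearly all differential regions (24362) are exactly 400 bp long, so their length is a setting and not the extent of a change, and they carry no sign. In whole testis, fewer cells of a type and less H2A.Z per cell cannot be told apart. A Control peak lay at the ends of all 4 germ cell markers looked up (Ddx4, Dazl, Sycp3 and Stra8), of 3 of 4 Sertoli cell markers and of 2 of 5 Leydig and peritubular cell markers. Over all 21887 protein-coding genes the share was 67.7%, and a peak is not a measure of expression. In Znhit1-CKO testes 2 of those 4 germ cell markers (Sycp3 and Stra8) had no boundary peak, against none of the 3 Sertoli and none of the 2 Leydig and peritubular cell markers. Of all 14815 protein-coding genes with a Control peak within 1 kb of an end, 11.5% had none there in Znhit1-CKO testes. The Control peak of Stra8 was 205 bp wide, the least width in the Control list. Sycp3 is counted again below, among the axis genes. The peak of Ddx4 measured 291 bp in Znhit1-CKO and 1186 bp in Control testes, and that of Wt1, a Sertoli cell marker, 296 bp in Znhit1-CKO and 1757 bp in Control testes. Ddx4 and Wt1 narrowed most among the markers kept. Summed widths in Znhit1-CKO and Control testes were 1188 and 1635 bp at Dazl, 1220 and 2353 bp at Sox9, and 1656 and 1737 bp at Amh. They were 520 and 1218 bp at Acta2 and 1213 and 1741 bp at Myh11. The part of cell composition in the results below was not tested.

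In meiotic prophase, telomeres attach to the inner nuclear membrane and are moved along it by cytoplasmic motors, which brings homologous chromosomes together. TERB1 binds the telomere protein TRF1 and, with TERB2 and the membrane protein MAJIN, links the telomere to the envelope. SUN1 spans the inner membrane and binds KASH5 (the product of Ccdc155) of the outer membrane, which recruits dynein. Speedy A, the product of Spdya, binds and activates CDK2 at telomeres. Terb1, Terb2, Majin and Ccdc155 are known as genes of meiotic cells, whereas Sun1 is expressed in many tissues.

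All 6 genes had a Control peak within 1 kb of a gene end, the region called a boundary here, and 4 of the 6 also had a Znhit1-CKO peak there. Over all 21887 protein-coding genes, 67.7% (67.1 to 68.3%) had a Control boundary peak. Terb2 and Majin had a boundary peak in Control testes only, and are called lost. That is 33.3% of the 6 (exact 95% interval 4.33 to 77.7%, counting error only), against 11.5% (11.0 to 12.1%) of all 14815 protein-coding genes that had a Control boundary peak. With 6 genes this interval includes the share over all genes. At the 4 other genes the Znhit1-CKO peak was narrower at Terb1 and Ccdc155 and wider at Sun1 and, at the end it shares with Ndc80 but not over its internal start, at Spdya. All boundary peaks of the 6 genes together covered 4919 bp in Znhit1-CKO testes (4 peaks), against 7967 bp in Control testes (7 peaks). The whole lists, with peaks anywhere in the genome, also differed. They covered 25.2 Mb in Znhit1-CKO testes (31156 peaks), against 43.5 Mb in Control testes (48752 peaks).

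**Figure D1:**
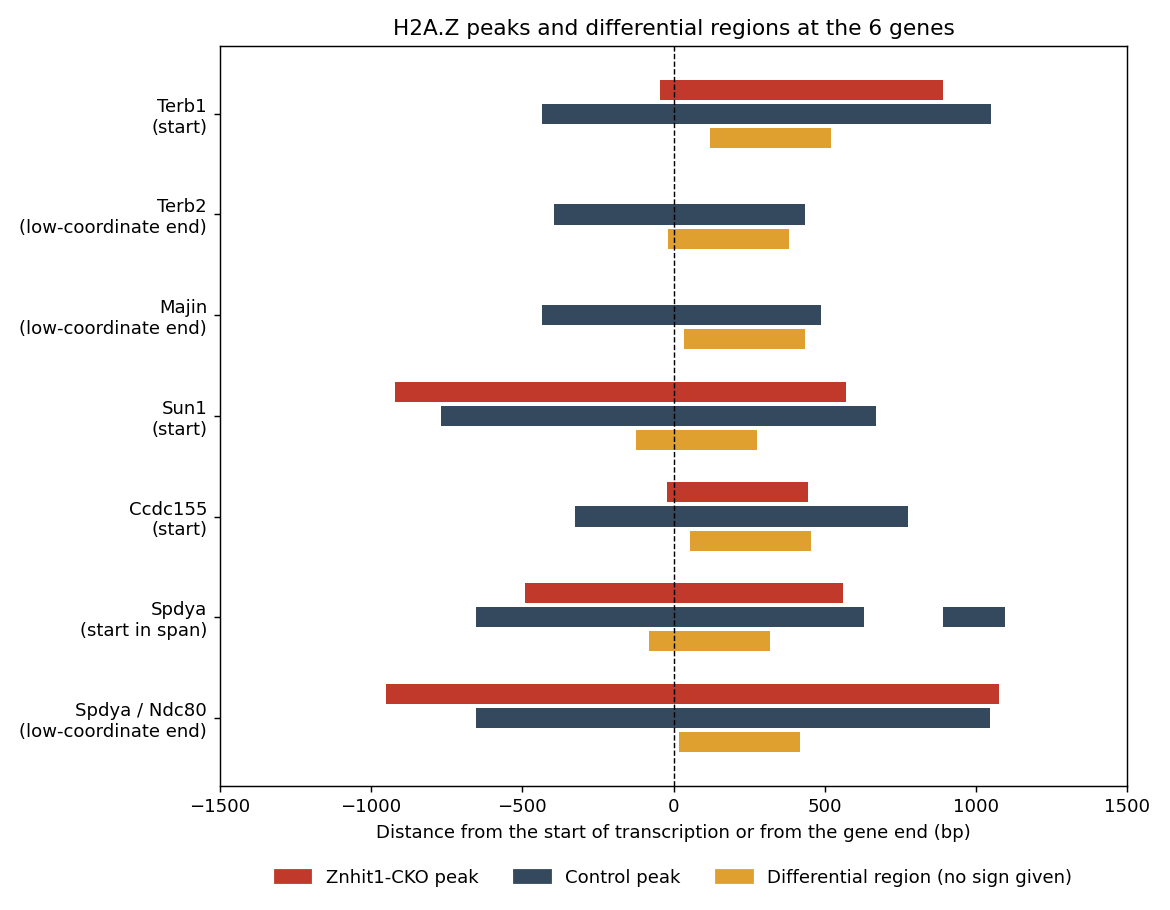
Znhit1-CKO peaks (red), Control peaks (blue) and differential regions (yellow) within 1500 bp of the start of transcription where the promoter table gives one (positive values run downstream), and otherwise of the end of the gene with the lower coordinate. Terb2 and Majin show no red bar, the red bars of Terb1 and Ccdc155 stop 45 and 22 bp upstream of the start, and those of Sun1 and of the low end of Spdya reach farther upstream than the blue ones.

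Terb2 and Majin encode the pair of proteins that join TERB1 to the membrane. At Terb2 (chromosome 2, 122186272 to 122206393), no Znhit1-CKO peak was listed, against 1 Control peak of 828 bp at 122185878 to 122186705. That peak covered the low-coordinate end of the gene, from 394 bp outside it to 433 bp inside it. The nearest Znhit1-CKO peak lay 21.2 kb away, and no peak of either list lay elsewhere in the span. The same Control peak covered the start of Patl2, a gene on the minus strand known for its part in oocyte maturation, which ends 82 bp from Terb2. Patl2 itself was not lost by the rule, because a Znhit1-CKO peak of 1846 bp lay at its other end.

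At Majin (chromosome 19, 6184345 to 6224230) the picture was close to that at Terb2. No Znhit1-CKO peak was listed, against 1 Control peak of 924 bp at 6183909 to 6184832, which ran from 436 bp outside the low-coordinate end to 487 bp inside it. The nearest Znhit1-CKO peak was 41.9 kb away, and no other gene ended within 1 kb of the Control peak. A differential region lay wholly inside the Control peak of each gene, at 122186253 to 122186652 for Terb2 and at 6184378 to 6184777 for Majin. Neither region has a stated direction.

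Both lost peaks were narrow for a gene boundary. The median of the widest Control boundary peak was 1429 bp over the 14815 genes, and the peaks of Terb2 and Majin stood at percentiles 12.8 and 16.5 of that distribution. Over all lost genes the median was 714 bp, against 1487 bp over genes kept in both lists. Of the 1139 genes whose widest Control boundary peak measured 800 to 1000 bp, 24.8% (22.3 to 27.4%) were lost. Loss is therefore more frequent among genes with peaks of this width than among all genes, and Terb2 and Majin are 2 of those 282 lost genes.

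**Figure D2:**
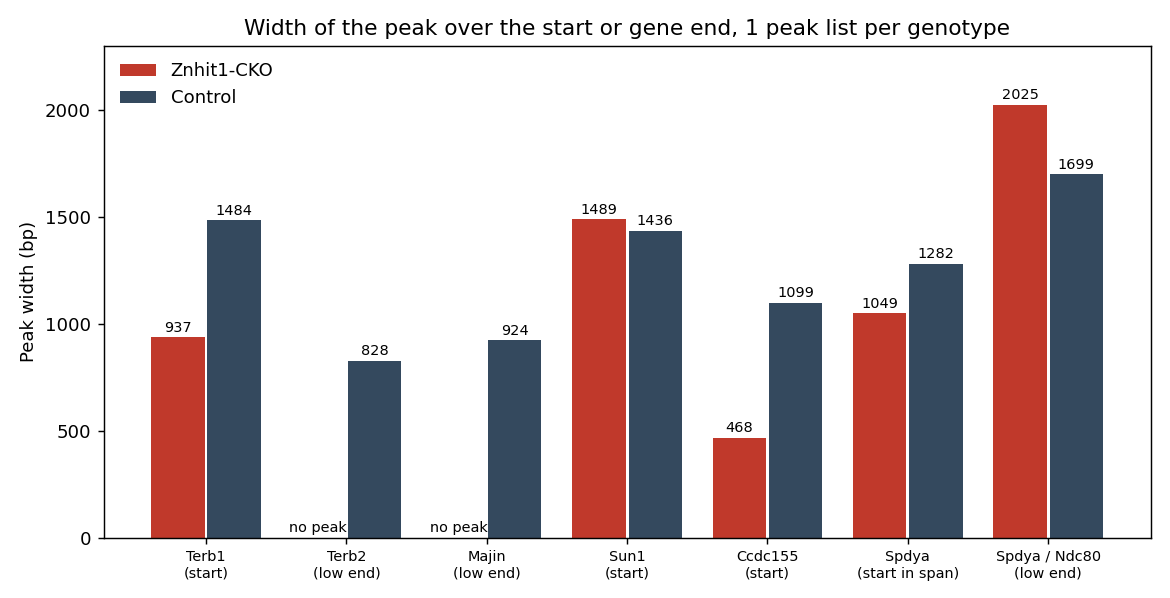
Width in bp of the peak that covers the start of transcription or the low-coordinate end of each gene, in Znhit1-CKO (red, left) and Control (blue, right) testes, from 1 peak list per genotype and so without error bars. Terb2 and Majin have a Control bar of 828 and 924 bp and none in Znhit1-CKO, and the bars of Ccdc155 measure 468 bp in Znhit1-CKO and 1099 bp in Control.

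Terb1, which encodes the TRF1-binding protein of the complex, kept a shorter peak. On chromosome 8 (104446718 to 104509887, minus strand) the peak over its start was 937 bp wide in Znhit1-CKO testes (104508996 to 104509932), against 1484 bp in Control testes (104508840 to 104510323). The log2 ratio of Znhit1-CKO over Control width was -0.66, which put it at percentile 20.1 (the share of genes at or under this value) of the 13104 genes with a boundary peak in both lists, whose median was -0.26. The shortening was uneven. Upstream of the start the peak reached 45 bp in Znhit1-CKO and 436 bp in Control testes, and downstream it reached 891 bp and 1047 bp. The Control peak also came within 705 bp of Nae1, which lies 1140 bp beyond the start of Terb1 and whose own start is at its far end. The Znhit1-CKO peak stopped over 1 kb from Nae1. Gm22148, a small nuclear RNA gene inside Terb1, ended 988 bp from the Znhit1-CKO peak and 832 bp from the Control peak.

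Ccdc155, the gene of KASH5, showed the greatest narrowing among the 4 genes with a peak in both lists. On chromosome 7 (45183619 to 45204919, minus strand) the peak over the start was 468 bp wide in Znhit1-CKO testes (45204447 to 45204914), against 1099 bp in Control testes (45204119 to 45205217), a log2 ratio of -1.23. It reached 22 bp upstream in Znhit1-CKO and 325 bp in Control testes, and 445 bp and 773 bp downstream, so both sides drew in by similar lengths (303 and 328 bp). A second Control peak of 497 bp, 844 bp outside the other end of the gene and 441 bp from Pth2, had no Znhit1-CKO peak within 19.4 kb. With both Control peaks counted, the log2 ratio of summed width was -1.77, at percentile 2.69 of the 13104 genes. With the widest peak only, the ratio of -1.23 stood at percentile 8.07 of the same genes. Pth2 has no boundary peak in Znhit1-CKO testes and so is lost, whereas Ccdc155 is kept.

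The RefSeq promoter table (GRCm38.p6) gives the strand and the start of Terb1, Ccdc155, Sun1 and Spdya; Terb2 and Majin did not match it. Each sequence runs 5′ to 3′ from 250 bases before the start to 50 bases after it. All 4 windows lie wholly under a Control peak, and capitals mark the bases that also lie under a Znhit1-CKO peak. Edges that moved outside the window do not show. The Spdya peak drew in by 163 bp upstream, yet all 300 of its bases are capitals. Terb1 is chr8:104509838-104510137 (minus strand), Ccdc155 chr7:45204843-45205142 (minus strand), Sun1 chr5:139200387-139200686 (plus strand) and Spdya chr17:71551811-71552110 (plus strand).
Terb1: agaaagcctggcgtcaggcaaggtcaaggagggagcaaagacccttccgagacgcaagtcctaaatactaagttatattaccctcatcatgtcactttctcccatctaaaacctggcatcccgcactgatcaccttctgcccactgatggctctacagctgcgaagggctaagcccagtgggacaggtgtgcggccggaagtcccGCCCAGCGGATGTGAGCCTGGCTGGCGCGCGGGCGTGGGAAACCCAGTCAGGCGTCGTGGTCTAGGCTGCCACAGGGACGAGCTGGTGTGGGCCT
Ccdc155: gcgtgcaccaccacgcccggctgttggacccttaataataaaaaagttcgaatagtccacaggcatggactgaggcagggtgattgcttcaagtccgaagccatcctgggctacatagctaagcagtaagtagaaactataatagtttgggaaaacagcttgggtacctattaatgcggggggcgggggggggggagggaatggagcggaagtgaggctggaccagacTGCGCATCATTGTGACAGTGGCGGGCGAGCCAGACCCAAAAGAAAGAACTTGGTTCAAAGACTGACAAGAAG
Sun1: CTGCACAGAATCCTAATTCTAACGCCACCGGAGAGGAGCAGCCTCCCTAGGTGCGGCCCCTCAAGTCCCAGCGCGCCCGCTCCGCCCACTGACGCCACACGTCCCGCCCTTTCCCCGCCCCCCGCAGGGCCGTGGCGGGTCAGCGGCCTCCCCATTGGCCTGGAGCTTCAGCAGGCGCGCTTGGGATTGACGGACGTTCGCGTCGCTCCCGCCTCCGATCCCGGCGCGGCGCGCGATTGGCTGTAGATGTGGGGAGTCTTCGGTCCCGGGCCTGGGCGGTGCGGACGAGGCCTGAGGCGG
Spdya: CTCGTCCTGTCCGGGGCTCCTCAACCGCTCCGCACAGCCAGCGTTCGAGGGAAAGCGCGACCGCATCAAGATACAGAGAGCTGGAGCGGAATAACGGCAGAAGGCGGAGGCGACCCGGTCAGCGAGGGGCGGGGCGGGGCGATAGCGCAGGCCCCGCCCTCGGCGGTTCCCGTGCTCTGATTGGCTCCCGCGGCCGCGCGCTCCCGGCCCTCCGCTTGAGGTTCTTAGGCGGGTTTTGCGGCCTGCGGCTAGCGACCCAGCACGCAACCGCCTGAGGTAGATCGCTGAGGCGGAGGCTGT
Of the 300 bases, 95 at Terb1 and 72 at Ccdc155 were under a Znhit1-CKO peak, against 300 at both Sun1 and Spdya. At Terb1 and Ccdc155 the retained part thus held the 50 bases after the start and only the last bases before it.

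Sun1, the inner membrane partner of KASH5, had nearly equal peaks. On chromosome 5 (139200564 to 139249839, plus strand) the peak was 1489 bp wide in Znhit1-CKO testes (139199718 to 139201206), against 1436 bp in Control testes (139199870 to 139201305), a log2 ratio of 0.05 at percentile 89.8. Both called edges lay farther upstream in Znhit1-CKO testes: the peak reached 919 bp upstream in Znhit1-CKO and 767 bp in Control testes, and 569 bp and 668 bp downstream. The downstream change stood at percentile 45.2 of all starts under a peak of both lists. Whether H2A.Z was displaced was not tested. The second Sun1 promoter in the table, at 139215158, lay under no Control peak. Over all 13104 genes, 84.8% had the smaller summed width in Znhit1-CKO testes, so Sun1 belongs to the minority that did not.

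Spdya, the gene of Speedy A, had 2 sites that differed in direction. On chromosome 17 (71526895 to 71589533) the peak at the low-coordinate end was 2025 bp wide in Znhit1-CKO testes (71525945 to 71527969), against 1699 bp in Control testes (71526243 to 71527941). This log2 ratio of 0.25 stood at percentile 97.4 of the 13104 genes. The peak was shared with Ndc80, which encodes a kinetochore protein and starts 37 bp away on the minus strand. The start of Spdya in the promoter table, at 71552061, lies inside the span, where the peak was 1049 bp wide in Znhit1-CKO testes (71551571 to 71552619) and 1282 bp in Control testes (71551408 to 71552689), a log2 ratio of -0.29. There it reached 490 bp upstream in Znhit1-CKO and 653 bp in Control testes, and 558 bp and 628 bp downstream. A small Control peak of 205 bp at 71552950 to 71553154 had no counterpart.

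**Figure D3:**
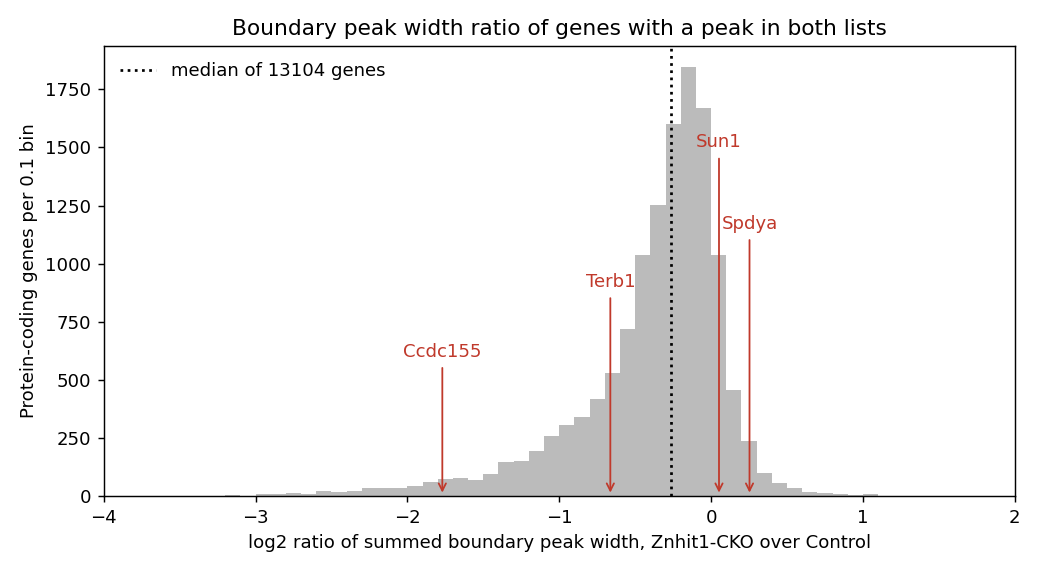
Histogram of the log2 ratio of summed boundary peak width, Znhit1-CKO over Control, for 13104 protein-coding genes with a boundary peak in both lists (values under -4 are in the first bin), with the 4 genes marked and the median of -0.26 dotted. Ccdc155 (-1.77) and Terb1 (-0.66) lie left of the median, and Sun1 (0.05) and Spdya (0.25) right of it.

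Apart from Spdya, the other 5 genes had no peak of either list in the span between their boundaries. Of 4609 protein-coding genes as long as these 6 (20122 to 63170 bp) with a Control boundary peak, 71.3% likewise had no Control peak inside. H2A.Z was thus listed at the boundaries of these genes and around the internal start of Spdya.

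All 6 genes had a differential region at a boundary in the authors' deposited table, against a background of 62.8% of genes with a Control boundary peak. The exact 95% interval for 6 of 6 starts at 54.1% and includes that share. Spdya had a further region at its internal start. Measured from the start, the region ran from 121 to 520 bp downstream at Terb1, from 55 to 454 bp downstream at Ccdc155, from 123 bp upstream to 276 bp downstream at Sun1, and from 80 bp upstream to 319 bp downstream at the internal start of Spdya. All 4 were centred downstream, as 65.2% of 8342 starts with a region within 1 kb were.

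At the genes with a peak in both lists, the regions lay on sequence that was still called in Znhit1-CKO testes. At Terb1 all 400 bp of the region lay inside the Znhit1-CKO peak, and the upstream stretch that was no longer called held no region. Because the length of a region is a setting, this does not show whether H2A.Z changed in that stretch. At Ccdc155 391 of the 400 bp lay inside the Znhit1-CKO peak. At Sun1 and at both sites of Spdya the whole region lay inside the Znhit1-CKO peak. How often regions lie so over all genes was not counted. At Sun1 and the low end of Spdya a region thus accompanied a peak that was not narrower, and whether H2A.Z was higher or lower there cannot be read from the table.

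The edges of the peaks were set against all protein-coding starts under a peak of both lists (10747). Upstream, the Znhit1-CKO peak drew in by a median of 88 bp and was closer to the start at 76.5% of them. At Terb1 (391 bp, percentile 13.3 of the signed change) and Ccdc155 (303 bp, percentile 18.1) the upstream edge drew in by more than the median, and at Spdya (163 bp, percentile 33.6) likewise. At Sun1 it moved outwards by 152 bp (percentile 95.7). Downstream, the edge drew in by a median of 81 bp and was closer at 75.4% of them. The downstream values were 156 bp at Terb1 (percentile 31.7) and 328 bp at Ccdc155 (percentile 12.7). At Sun1 and Spdya they were 99 bp (percentile 45.2) and 70 bp (percentile 53.4).

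**Figure D4:**
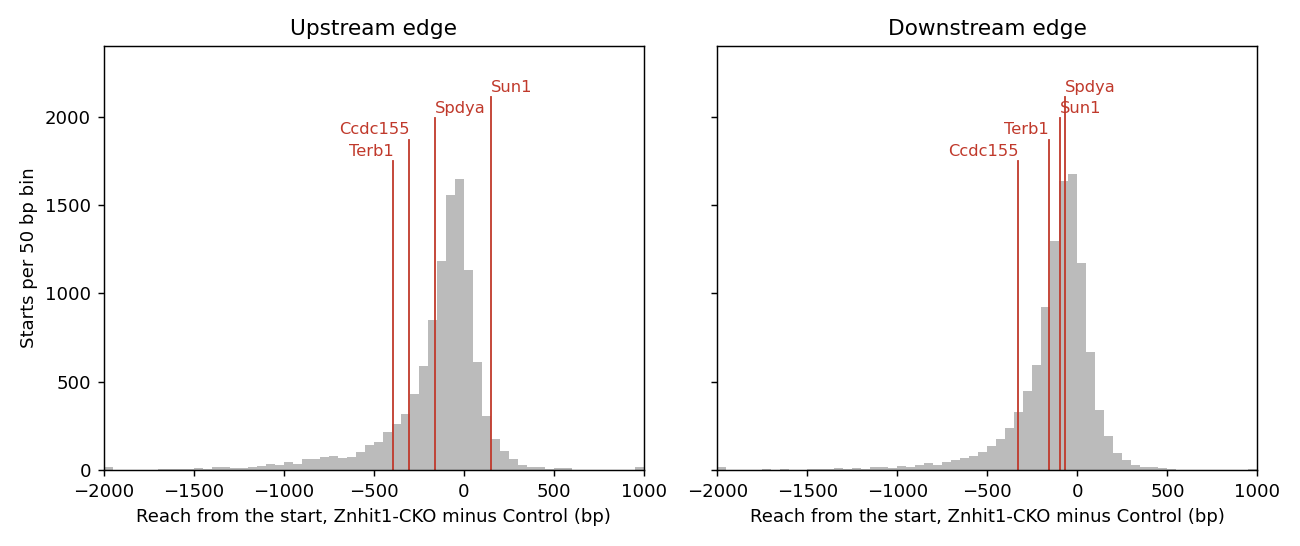
Change of the distance from the start to the upstream edge (left) and to the downstream edge (right) of the peak, Znhit1-CKO minus Control in bp, as histograms over 10747 protein-coding starts with a peak in both lists (values beyond the axis are in the end bins). Red lines mark the 4 genes with a known start: the upstream edge drew in by 391 bp at Terb1 and 303 bp at Ccdc155 and moved outwards by 152 bp at Sun1.

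The promoter windows also differed in base composition, which the choice of genes did not use. Terb1 had 16 CpG dinucleotides in 300 bases and Ccdc155 11, against 36 at Sun1 and 38 at Spdya. The median over 21238 protein-coding promoters was 13. Of the starts under a Control peak, 30.6% (29.0 to 32.2%) had no Znhit1-CKO peak where the window had 0 to 14 CpG, a group that holds Ccdc155, and 14.1% (12.9 to 15.4%) where it had 15 to 21, which holds Terb1. In the group with 30 to 67 CpG, which holds Sun1 and Spdya, it was 9.56% (8.56 to 10.6%). Control peaks were narrower in the CpG-poorest of the 4 groups of starts (median 1236 bp) than in the CpG-richest (1642 bp), and their part in this order was not tested. Starts that kept a peak differed little in narrowing: from the CpG-poorest to the CpG-richest group, the median log2 width ratio was -0.22, -0.24, -0.20 and -0.20. The median change of the upstream edge was -70, -94, -92 and -92 bp in the same order. These medians leave out the starts with no Znhit1-CKO peak, whose share differed between the groups. The part of CpG content in the narrower peaks of Terb1 and Ccdc155 was not tested.

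Letters of transcription factor motifs were searched on both strands of these windows. TAACGG, a MYB motif, was in the Spdya window alone and in 2.95% of all promoters. CNCCTCAG, the motif of STRA8 and MEIOSIN, which switch on meiotic genes, was in the Sun1 and Spdya windows and in 8.52% of all. CCAAT, bound by NFY, was in both as well as in the second Sun1 promoter (38.2% of all). TGACG, a short CREB and CREM motif, was in the Sun1 and Terb1 windows (23.6% of all), and the Terb1 match lay in the part with no Znhit1-CKO peak. CAACTG (MYB), TGACGTCA (CREB and CREM, which holds TGACG), TTTCCCGC and TTTGGCGC (E2F), GTTGCC (RFX) and CTCGCGAGA (ZBTB33), and the NRF1 motif, were in none of the windows. The Ccdc155 window held none of the motifs searched.

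Genes that work beside these 6 were taken from 5 lists drawn from textbook knowledge. Over all 5 lists, 4 of 45 genes with a Control boundary peak were lost (8.89%), beside 11.5% over all genes. All 4 were in the list of the meiotic axis and cohesin. The other lists held 6 to 13 such genes each, too few for 1 list with no loss to stand apart from 11.5%. Shelterin, which coats telomeres and includes Terf1 (TRF1, the partner of TERB1), kept a boundary peak at 7 of 7 genes, with log2 width ratios of -0.41 to 0.04. Terf1 measured 1426 bp in Znhit1-CKO and 1583 bp in Control testes. Of 14 other SUN, KASH and lamina genes, 12 had a Control boundary peak and all 12 kept it, with ratios of -0.64 to -0.06. Sun2, the close relative of Sun1, measured 1091 bp in Znhit1-CKO and 1380 bp in Control testes, and Sun5 and Syne4 had no peak in either.

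The motor genes kept their boundary peaks too, at 13 of 13 dynein and dynactin genes, with log2 width ratios of -1.30 to 0.07. Of 10 genes for CDK2 and its partners, 6 had a Control boundary peak and all 6 kept it, with ratios of -1.70 to 0.05. Cdk2 itself, the kinase that Speedy A activates, had 2 Znhit1-CKO peaks of 1182 bp in sum, against 1 Control peak of 1683 bp. Ccna1, Cdkn1a, Spdye4a and Spdye4c had no peak in either list. Of 7 genes of the meiotic axis and cohesin, 4 were lost: Sycp1, Sycp2, Sycp3 and Stag3. This difference from the other lists was not tested. Their Control peaks measured 1037, 1099, 944 and 361 bp in that order. The lower quartile of the widest Control boundary peak was 1106 bp over the 14815 genes with one. These 4 axis and cohesin genes were the only losses among the 45 genes. Of the 45, 28 had a differential region at a boundary, near the 62.8% over all genes. The median log2 width ratio over kept genes was -0.17 for shelterin, -0.26 for the SUN, KASH and lamina genes, -0.20 for the motor genes, -0.40 for CDK2 and its partners and -0.50 for the 3 kept axis genes, beside -0.31 for the 4 kept genes of telomere attachment.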

How the data were processed

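H2A.Z ChIP-seq of Znhit1-CKO and Control mouse testes was deposited as 3 interval lists. The submitters' processing notes name MACS2 2.2.4, Picard 2.20.7, SAMtools 1.9, BWA 0.7.17 and cutadapt 2.5, with mm10 as the build. Not given in the sources used here are the peak threshold, any pooling of replicates, and the threshold and sign of differential regions. The authors deposited coordinates only, so no other unit was used.

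Starts are counted from 1. Gene spans were taken from RefSeq (GRCm38.p6), as were strand, start and sequence of promoters. Boundaries were windows of 1000 bp at either gene end, and overlap meant 1 bp. Summed width is the whole length of all boundary peaks. Percentiles are shares of genes at or under a value. Shares carry exact (Clopper-Pearson) 95% intervals, which cover counting error only. No test was run: with 1 list per genotype there is no spread between animals. Boundary calls matched bedtools 2.31.1 at all 21887 genes (0 differing), and were tested on simulated data. Scripts ran on Python 3.11.15 with pandas 2.3.3, numpy 2.4.6, matplotlib 3.10.9 and scipy 1.17.1.

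The 6 genes and the lists were chosen with earlier results of these data known. All 6 were named, with genes sharing their peaks and, from each list, up to 5 genes lost or without a Control peak; Terf1, Sun2 and Cdk2 were chosen after their values were seen. Peak edges, CpG groups, width class and the peak over the promoter-table start were added after seeing the data.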

Additional observations from a re-analysis of the deposited data

How the results depend on the processing

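Terb2 and Majin were lost under all 6 alternatives tried: windows of 500 and 2000 bp, a gap of up to 500 bp, no overlapping Znhit1-CKO peak, 50% overlap of both peaks, and peaks of at least 500 bp only. Ccdc155 was lost too under the last 2, where 23.4% and 14.5% of all genes were lost. For Terb2 and Majin none of the 6 settings could have changed the call. The nearest Znhit1-CKO peak lay 21.2 kb from the Control peak of Terb2 and 41.9 kb from that of Majin. Both Control peaks were wider than 500 bp. The 6 differential regions were found under every window. The median log2 width ratio over the 4 kept genes (-0.31) was -0.40 with a 2000 bp window, -0.28 from bases inside the windows and, in an alternative chosen after seeing the data, -0.48 from peaks over the promoter-table start. The Spdya ratio (0.25) reversed under that last alternative, to -0.29, because another peak was measured. Terb1 was -0.85 with a 2000 bp window, which takes in a Control peak of 205 bp, and Ccdc155 was -1.23 with a 500 bp window, which leaves out its far Control peak. No paired analysis was possible because the 3 interval lists analysed here give no value per replicate, and replicates could not be left out for the same reason. A stricter threshold on q or fold was not run. Depth per library is unknown, so how near the narrow peaks of Terb2 and Majin were to the peak threshold is not known.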
